A study of Mus musculus with 8 samples.

Results

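The scaffold layer beneath the excitatory synapse was followed through 10 genes of the E15.5 mouse brain, *Shank1*, *Shank2*, *Shank3*, *Dlgap1*, *Dlgap3*, *Dlgap4*, *Dlg4*, *Homer1*, *Homer2* and *Homer3*. They were chosen by name, as the 3 Shank genes, the 3 Homer genes, 3 genes of the Dlgap family and *Dlg4*, and make up 10 of the 54752 genes counted. Each brain came from a wild type C57BL/6 embryo (C57BL/6Slac in the methods of the study) and gave its own mRNA library. In the stress group the pregnant dam had been exposed to CUMS (chronic unexpected mild stress, a changing series of mild stressors) until the day before the embryos were collected, and control dams had stayed in their home cages. The stress group held females F34 and F35 and males M28 and M29, and the control group females F36 and F37 and males M30 and M31. By the sample list of the study, the 4 control brains were littermates from a single dam and the 4 stress brains littermates from a single other dam, so that litter and condition cannot be told apart. The p-values below therefore measure differences against the spread among littermates. The same list names only a part of each whole brain as the material, and the brain mixes forebrain, midbrain and hindbrain.

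At an excitatory synapse, the receptors for glutamate are held in place by layers of scaffold protein that together form the postsynaptic density. PSD-95, the product of *Dlg4*, sits closest to the membrane and binds NMDA receptors and the auxiliary subunits of AMPA receptors. The SAPAP proteins, products of the Dlgap genes, connect PSD-95 to the SHANK proteins, which form the deepest sheet and bind HOMER, and HOMER in turn ties SHANK to metabotropic glutamate receptors and to calcium release channels of the endoplasmic reticulum. Loss of *Shank3* is a known cause of Phelan-McDermid syndrome with autism, and mice without *Dlgap3* groom compulsively. Most excitatory synapses of the mouse brain form after birth, so these genes are read here well before the structure they build is complete.

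Stretches upstream of 3 member genes are shown because the genes differ in their response to stress below, *Shank3* and *Dlgap3* being down-regulated and *Homer1* showing overlapping groups. They are the 250 bases before a RefSeq transcription start (GRCm38.p6, the build of mm10, plus strand). They lie at chr15:89499358-89499607 for *Shank3*, chr4:127172630-127172879 for *Dlgap3* and chr13:93303507-93303756 for *Homer1*, which has a further RefSeq start that is not shown. No base of the 3 stretches is annotated as an exon. The *Dlgap3* and *Homer1* starts lie inside the spans that the count table gives for these genes, which begin further upstream. Capitals mark the GC box GGGCGG or its reverse complement in *Shank3* and the CRE core TGACG in *Homer1*.
Shank3: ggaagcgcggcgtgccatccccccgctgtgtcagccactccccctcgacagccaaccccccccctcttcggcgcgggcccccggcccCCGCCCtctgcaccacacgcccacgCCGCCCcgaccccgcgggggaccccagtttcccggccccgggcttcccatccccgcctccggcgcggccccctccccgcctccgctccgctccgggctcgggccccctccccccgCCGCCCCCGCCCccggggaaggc
Dlgap3: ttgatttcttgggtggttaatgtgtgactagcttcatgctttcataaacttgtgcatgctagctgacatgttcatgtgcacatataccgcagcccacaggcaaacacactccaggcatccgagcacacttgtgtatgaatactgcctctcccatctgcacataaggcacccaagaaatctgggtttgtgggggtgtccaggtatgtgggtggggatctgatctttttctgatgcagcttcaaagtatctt
Homer1: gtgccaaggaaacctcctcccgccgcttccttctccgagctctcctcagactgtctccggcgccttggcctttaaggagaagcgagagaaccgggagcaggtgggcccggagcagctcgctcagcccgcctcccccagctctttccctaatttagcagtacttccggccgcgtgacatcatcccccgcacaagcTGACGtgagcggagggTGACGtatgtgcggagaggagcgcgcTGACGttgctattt

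The *Shank3* stretch held 82.4% G and C and 4 GC boxes, the *Homer1* stretch 62.4% G and C and 3 CRE cores, and the *Dlgap3* stretch 46.8% G and C with none of the motifs searched. The stretch before the other *Homer1* start (chr13:93307784-93308033) also held 46.8% G and C and none of these motifs. RefSeq promoters of 300 bases, which add 50 bases after the start, were given for 8 of the 10 genes, 13 promoters in all, and not for *Shank1* or *Shank2*. On both strands, the GC box was found in 5 of these 13 promoters and in 35.7% of all 32851 promoters, and the CRE core in 3 and in 20.8%. The E-box CACGTG was found in 1 member promoter and in 7.15% of all, the TATA box TATAAA in 1 and in 13.6%, and the CCAAT box CCAAT in none of the 13 and in 37.4% of all. Such matches only say which letters stand in these windows.

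The libraries held between 25320109 and 29105710 counts, and 17865 genes passed the filter on low counts (edgeR's filterByExpr, minimum count 10). Expression is given as CPM, read pairs scaled by the TMM-corrected size of each library, as mean ± SD over 4 brains. Log2FC is stress vs. control on the log2 scale. It was tested by quasi-likelihood in edgeR, in a model of condition and sex, and p-values were adjusted by Benjamini-Hochberg over the 17865 genes. A gene is called at an adjusted p under 0.05. Over all genes tested, 7.27% were called lower and 6.49% higher in stress, and the median Log2FC was 0.0015. Without stress M29 the calls over all genes dropped from 1298 lower and 1160 higher to 854 and 736. Brains of the same group differed from each other by more than counting noise. The chi-square per gene was between 1.99 (control F36 and F37) and 3.02 (stress F34 and F35) for pairs of the same sex. For pairs of different sex it was between 4.09 (control F37 and M30) and 6.28 (stress F34 and M29).

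All 10 scaffold genes were expressed in every brain, with 667 to 9926 counts per gene and brain. Of the 10, 6 were down-regulated in stress (*Shank1*, *Shank2*, *Shank3*, *Dlgap1*, *Dlgap3* and *Dlgap4*), against the background of 7.27%, and 0 were up-regulated. With offsets for GC content and gene length, the split was 5 lower and 1 higher. In 5 of the 10 genes every stress brain lay below every control brain, a pattern seen in 8.22% of all genes tested. Neither background share is matched for expression level. The median over all genes tested was 17.6 CPM, while the control means of the scaffold genes ran from 26.4 (*Homer3*) to 345 CPM (*Dlgap4*). The median Log2FC of the 10 genes was -0.11. The falls were small, between 5.65% for *Dlgap4* and 18.5% for *Shank3*, and the 3 Homer genes and *Dlg4* did not pass the test. By DESeq2's Wald test 5 of the 10 were called lower, where 5.1% of all genes were. In bulk tissue, fewer cells of a type and less RNA per cell cannot be told apart.

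**Figure D1:**
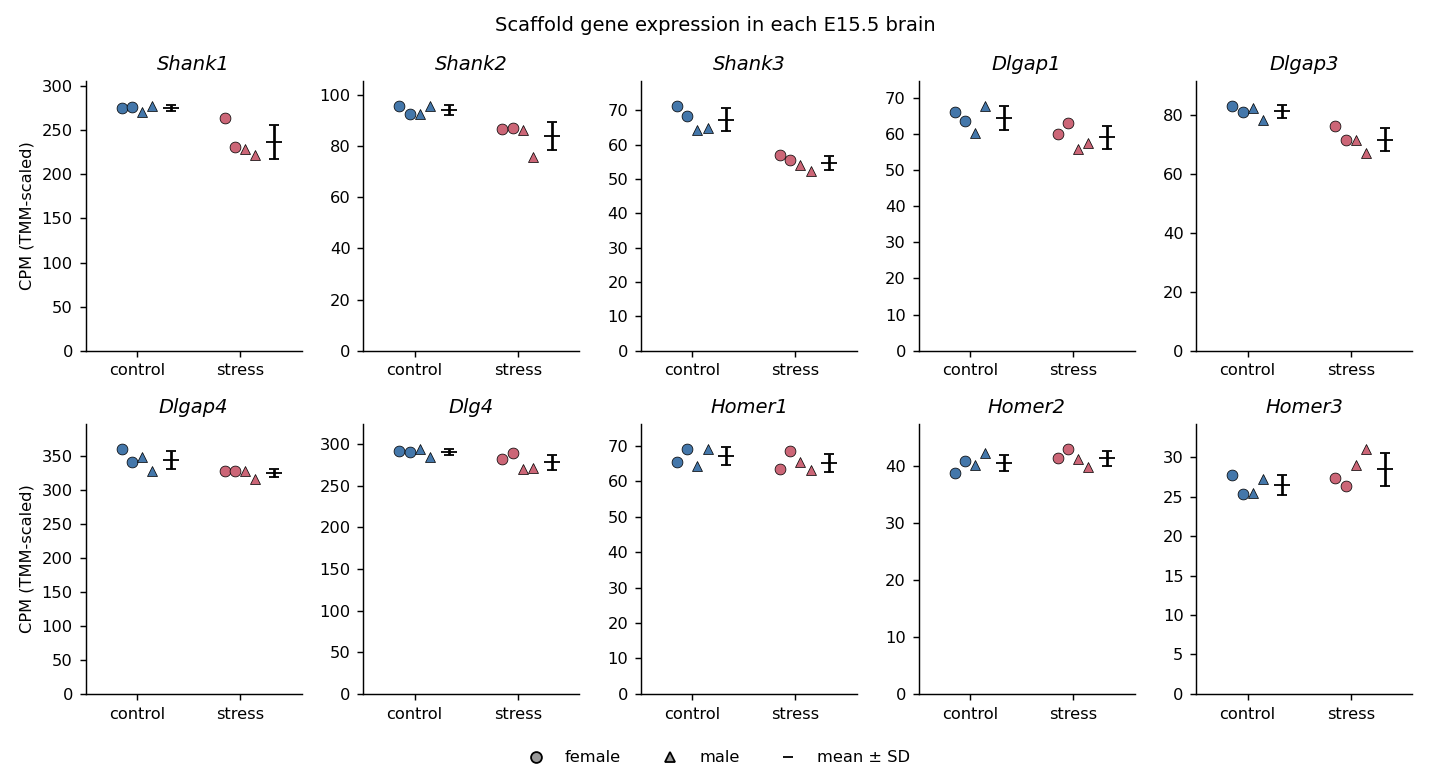
Expression of the 10 scaffold genes in each E15.5 brain, in CPM on an axis that starts at 0, with circles for females, triangles for males and a bar for the mean ± SD of the 4 brains of a group. The stress brains of *Shank3* sit between 52.4 and 57.0 CPM, all below the control brains, while the groups of the 3 Homer genes overlap.

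The Shank genes encode the large master scaffolds at the base of the postsynaptic density. *Shank3* (ENSMUSG00000022623, chr15:89499623-89560261, plus strand) stood at 71.4, 68.4, 64.4 and 64.7 CPM in control F36, F37, M30 and M31 and at 57.0, 55.6, 54.0 and 52.4 CPM in stress F34, F35, M28 and M29. The groups lay apart, with the highest stress brain well under the lowest control brain. *Shank3* fell from 67.2 ± 3.32 to 54.8 ± 1.99 CPM, a Log2FC of -0.30 (SE 0.03, 95% interval -0.36 to -0.23, edgeR adjusted p = 2.89e-06). The study listed *Shank3* among its DEGs on animals that include these 8, so its fall here is not independent evidence.

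*Shank1* (ENSMUSG00000038738, chr7:44310253-44360572, plus strand) is the family member with the highest level per length. It stood at 276, 277, 271 and 278 CPM in control F36, F37, M30 and M31, and at 264, 231, 229 and 222 CPM in stress F34, F35, M28 and M29. The controls were nearly level, and among the stress brains female F34 stood close to them while the other 3 lay together further down. *Shank1* fell from 275 ± 3.03 to 237 ± 19.0 CPM, a Log2FC of -0.22 (SE 0.03, 95% interval -0.29 to -0.15, edgeR adjusted p = 0.000127).

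*Shank2* (ENSMUSG00000037541, chr7:144001928-144424494, plus strand) stood at 95.5, 92.4, 92.4 and 95.8 CPM in control F36, F37, M30 and M31 and at 86.7, 87.0, 86.3 and 75.8 CPM in stress F34, F35, M28 and M29. Here 3 stress brains were alike and male M29 stood below them, and no stress brain reached a control. *Shank2* fell from 94.0 ± 1.86 to 84.0 ± 5.48 CPM, a Log2FC of -0.16 (SE 0.04, 95% interval -0.24 to -0.09, edgeR adjusted p = 0.00298). Summed per length over the 3 Shank genes, FPKM (CPM per kilobase of exon) was 41.4 to 42.9 in the control brains and 33.8 to 39.4 in the stress brains.

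The Dlgap genes encode SAPAP proteins, the link between PSD-95 and SHANK. *Dlgap3* (ENSMUSG00000042388, chr4:127169204-127237022, plus strand) stood at 83.0, 80.9, 82.3 and 78.1 CPM in control F36, F37, M30 and M31 and at 76.3, 71.4, 71.3 and 67.0 CPM in stress F34, F35, M28 and M29. The groups lay apart, with female F34 again the stress brain nearest to the controls. *Dlgap3* fell from 81.1 ± 2.16 to 71.5 ± 3.81 CPM, a Log2FC of -0.18 (SE 0.03, 95% interval -0.25 to -0.11, edgeR adjusted p = 0.000704). With offsets for GC content and gene length its Log2FC was -0.11 (adjusted p = 0.0120), still called. *Dlgap3* too is among the DEGs that the study listed from animals including these.

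*Dlgap1* (ENSMUSG00000003279, chr17:69969073-70821413, plus strand) stood at 66.1, 63.5, 60.3 and 67.8 CPM in control F36, F37, M30 and M31 and at 60.04, 62.9, 55.7 and 57.5 CPM in stress F34, F35, M28 and M29. The groups overlapped, since stress F35 was above control M30. Its Log2FC of -0.13 (SE 0.04, 95% interval -0.21 to -0.05) passed edgeR's test at an adjusted p of 0.0280 and missed it with DESeq2 (adjusted p = 0.0548). The call was lost without control F36 (-0.13), control M31 (-0.08), stress F34 (-0.13), stress M28 (-0.11) or stress M29 (-0.13).

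*Dlgap4* (ENSMUSG00000061689, chr2:156613705-156764363, plus strand) stood at 361, 342, 349 and 329 CPM in control F36, F37, M30 and M31 and at 329, 329, 329 and 317 CPM in stress F34, F35, M28 and M29. The groups barely separated, with the highest stress brain at 329.0 and the lowest control brain at 329.2 CPM. Its Log2FC of -0.08 (SE 0.03, 95% interval -0.14 to -0.03) was just past the threshold with edgeR (adjusted p = 0.0455). The call was lost with offsets for GC content and gene length (Log2FC -0.04, adjusted p = 0.326), without the sex covariate (adjusted p = 0.108), and without control F36 (-0.07), F37 (-0.10) or M30 (-0.07) or stress F34 (-0.08), F35 (-0.08) or M29 (-0.08).

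*Dlg4* (ENSMUSG00000020886, chr11:70016942-70047522, plus strand), the gene of PSD-95, stood at 292, 291, 294 and 284 CPM in control F36, F37, M30 and M31 and at 282, 289, 270 and 271 CPM in stress F34, F35, M28 and M29. Stress F35 lay among the controls and the other 3 stress brains below them. *Dlg4* went from 290 ± 4.12 to 278 ± 8.99 CPM, a Log2FC of -0.06 (SE 0.03, 95% interval -0.12 to -0.0075, edgeR adjusted p = 0.127) that did not pass the test.

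The Homer genes encode adaptors that bind SHANK on one side and metabotropic receptors or calcium channels on the other. *Homer1* (ENSMUSG00000007617, chr13:93299635-93405129, plus strand) stood at 65.5, 69.1, 64.2 and 69.1 CPM in control F36, F37, M30 and M31 and at 63.5, 68.5, 65.3 and 63.2 CPM in stress F34, F35, M28 and M29. The groups overlapped, with a Log2FC of -0.04 (SE 0.04, 95% interval -0.12 to 0.03, edgeR adjusted p = 0.505). The counts add up all isoforms of a gene, so the short, activity-induced form Homer1a and the long forms, which compete at the same ligands, cannot be told apart.

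*Homer2* (ENSMUSG00000025813, chr7:81600481-81707527, minus strand) stood at 38.8, 40.8, 40.1 and 42.2 CPM in control F36, F37, M30 and M31 and at 41.5, 43.0, 41.3 and 39.8 CPM in stress F34, F35, M28 and M29. Its groups overlapped, with a Log2FC of 0.03 (SE 0.04, 95% interval -0.05 to 0.11, edgeR adjusted p = 0.686). *Homer3* (ENSMUSG00000003573, chr8:70282827-70294361, plus strand) stood at 27.7, 25.3, 25.4 and 27.3 CPM in the controls and at 27.3, 26.3, 29.03 and 31.1 CPM in the stress brains, in the same order. Both stress males stood above every control and both stress females among them. Its Log2FC of 0.11 (SE 0.05, 95% interval 0.0040 to 0.21) did not pass edgeR's test (adjusted p = 0.167), but was 0.15 and called higher with offsets for GC content and gene length (adjusted p = 0.0282). Of the exon bases of *Homer3*, 25.4% are shared with the antisense gene *Ddx49*, and the counting was not stated to use strand. Its value is therefore uncertain.

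Per length, the controls gave the order *Dlgap4* at 40.9 ± 1.59, *Shank1* at 26.2 ± 0.288, *Dlg4* at 21.9 ± 0.311, *Dlgap3* at 17.9 ± 0.478 and *Shank2* at 8.73 ± 0.173 FPKM. Below these came *Homer3* at 7.68 ± 0.366, *Shank3* at 7.32 ± 0.362, *Homer1* at 5.59 ± 0.211, *Dlgap1* at 3.60 ± 0.183 and *Homer2* at 3.21 ± 0.114 FPKM, so the highest mean was 12.7 times the lowest. Neighbours in this order did not overlap over the 4 control brains, except *Homer3* and *Shank3*. In stress *Homer3* (8.27 FPKM) came before *Shank2* (7.80 FPKM), and the rest of the order was as in the controls.

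Because a share within a family does not depend on how libraries are scaled, the share of each paralogue in the summed FPKM of its family was compared by an exact permutation test, two-sided, adjusted over the 9 shares. *Shank1* made up 62.0% ± 0.561 of Shank FPKM in control and 62.0% ± 1.35 in stress brains (n = 4 each, exact adjusted p = 0.943). *Shank2* made up 20.7% and 21.5%, and *Shank3* 17.3% and 16.5%. In the Homer family, *Homer1* stood at 33.9% in control and 32.0% in stress, *Homer2* at 19.5% and 19.3%, and *Homer3* at 46.6% and 48.6%. This order rests on the division by exon length, 3440 bases for *Homer3*, 11976 for *Homer1* and 12621 for *Homer2*. In CPM *Homer3* was the lowest Homer gene in control brains, at a mean of 26.4 against 67.0 for *Homer1* and 40.5 for *Homer2*. Among the 3 Dlgap genes, *Dlgap1* made up 5.78% and 5.72%, *Dlgap3* 28.8% and 27.4%, and *Dlgap4* 65.5% and 66.9%. These shares too rest on exon length, 17890 bases for *Dlgap1*, 4521 for *Dlgap3* and 8451 for *Dlgap4*. In CPM the control means were 64.5, 81.1 and 345. The shares of *Dlgap3* and *Dlgap4* had the smallest p, 0.0571 each by the exact permutation test (adjusted p = 0.257). For *Dlgap3* the ranges were 28.3% to 28.97% in control and 26.7% to 28.5% in stress. With 4 brains against 4 the smallest possible p is 0.0286, which adjusts to 0.257 for a single share, and a share could be called only if at least 6 of the 9 reached it. That none was called therefore says nothing on whether the shares differed.

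**Figure D2:**
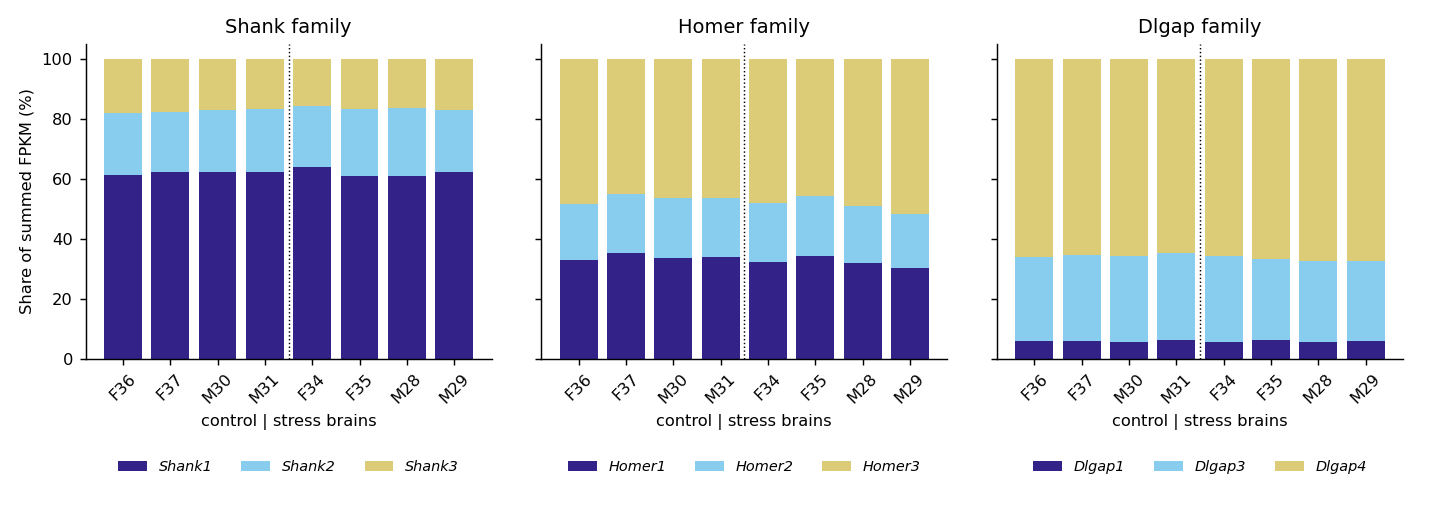
Share of each paralogue in the summed FPKM of its family, in percent, stacked to 100 for each of the 4 control and 4 stress brains. By FPKM, *Shank1*, *Homer3* and *Dlgap4* hold the largest share of their families in all 8 brains. In CPM, before division by exon length, *Homer3* is the lowest Homer gene.

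The sexes were also fitted apart, 2 stress against 2 control brains each. In females 2 of the 10 genes were called lower, *Shank1* and *Shank3*, where 2.27% of all genes were, and in males 5, *Shank1*, *Shank2*, *Shank3*, *Dlgap1* and *Dlgap3*, where 4.81% were. *Shank3* had a Log2FC of -0.31 (SE 0.05) in females and -0.28 (SE 0.05) in males. The female Log2FC of *Shank1* was -0.15 (SE 0.05, edgeR adjusted p = 0.0496) and fell short of the threshold without control F36 (-0.16), control F37 (-0.15) or stress F35 (-0.06), while the male one was -0.29 (SE 0.04, adjusted p = 3.36e-06). *Shank2* stood at -0.11 (SE 0.05) in females and -0.22 (SE 0.05) in males. Without stress M29 the male values of *Shank2* (-0.12), *Dlgap1* (-0.20) and *Dlgap3* (-0.17) were no longer called, and that of *Dlgap1* was also lost without control M31 (-0.09) or stress M28 (-0.16). With no filter on low counts, 0 of the 10 were called in males. DESeq2 called 1 gene lower in females, *Shank3* (0.451% of all genes), and 3 in males, *Shank1*, *Shank3* and *Dlgap3* (1.36% of all genes). Sex itself, looked at after the data were seen, was called for 0 of the 10 genes (male vs. female over all 8 brains, edgeR), where it was called for 0.0896% of all genes.

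Whether the response differed between the sexes was tested by the interaction term, male minus female. None of the 10 genes was called (0 by edgeR, which called 0.0056% of all genes, and 0 by DESeq2, which called 0.0112%), and 0 had an unadjusted p under 0.05, where 6.31% of all genes did. For *Shank1* the difference in Log2FC was -0.13 (95% interval -0.26 to 0.0015, adjusted p = 0.781), for *Shank3* 0.03 (-0.10 to 0.17, adjusted p = 0.961) and for *Homer3* 0.17 (-0.02 to 0.37, adjusted p = 0.821). For *Shank1* and *Homer3* the interval reached beyond the size of the Log2FC over both sexes, and for *Shank3* it did not.

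**Figure D3:**
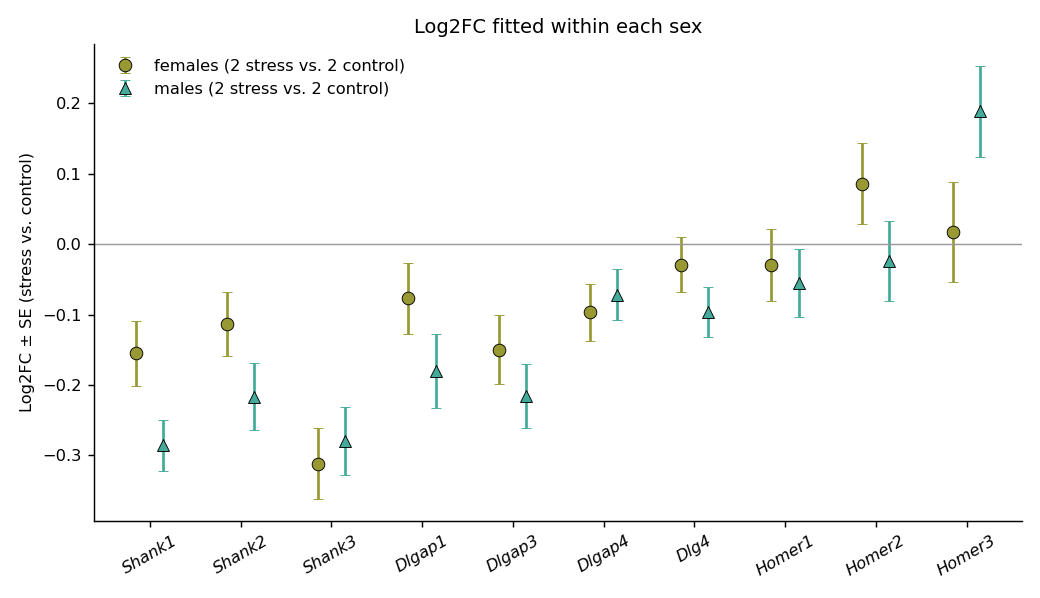
Log2FC (stress vs. control) of the 10 scaffold genes fitted within each sex, 2 against 2 brains, with bars for the SE. The *Shank3* values of females (-0.31) and males (-0.28) overlap within their SE, while the male values of *Shank1* (-0.29) and *Homer3* (0.19) stand further from 0 than the female ones (-0.15 and 0.02).

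The other paralogues of the families, which the choice of 10 left out, did not move as a block. *Dlg2*, the gene of PSD-93, was down-regulated from 152 ± 7.11 to 134 ± 9.95 CPM (Log2FC -0.18, SE 0.04, edgeR adjusted p = 0.00258, DESeq2 0.0537), with overlapping groups. *Dlgap5*, which acts at the mitotic spindle and not at the synapse, was up-regulated from 15.4 ± 1.12 to 17.9 ± 0.594 CPM (Log2FC 0.22, SE 0.06, edgeR adjusted p = 0.0101), and every stress brain lay above every control. *Dlg1* (-0.01), *Dlg3* (0.0043), *Dlg5* (0.07) and *Dlgap2* (-0.22, adjusted p = 0.0797) did not pass. The median over the 6 was -0.0042.

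Binding partners of the scaffolds were followed in 5 lists. Together with the 6 paralogues, 23 genes were called lower and 1 higher, and with offsets for GC content and gene length 21 and 4. Over all genes tested 7.27% were called lower and 6.49% higher, which is the background for each partner list below. This background is not matched for expression level. Of 14 genes whose products bind PSD-95 directly or through a partner, 8 were down-regulated and 0 up-regulated (median -0.12). They included the NMDA receptor subunits *Grin2b*, from 204 ± 7.83 to 175 ± 11.7 CPM (Log2FC -0.23, SE 0.03), and *Grin2a* (-0.25, SE 0.08, edgeR adjusted p = 0.0404, DESeq2 0.109), the secreted synaptic linker *Lgi1* (-0.21, SE 0.05) and the exchange factor *Iqsec2* (-0.18, SE 0.04).

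Of 11 HOMER ligands, 4 were down-regulated and 0 up-regulated (median -0.13). The metabotropic glutamate receptor *Grm5* went from 113 ± 3.56 to 95.6 ± 11.2 CPM (Log2FC -0.25, SE 0.05). In *Grm5* 3 stress brains stood at 89.8 to 90.5 CPM, and stress F35 at 112 CPM among the controls. The IP3 receptor *Itpr1* (-0.18, SE 0.05) and the GTPase-activating protein *Agap2* (-0.15, SE 0.03) were also down-regulated.

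Of 16 partners of SHANK and SAPAP, direct or through another protein, 5 were down-regulated and 0 up-regulated (median -0.04). *Baiap2*, the actin regulator IRSp53, went from 29.6 ± 1.06 to 25.6 ± 1.15 CPM (Log2FC -0.21, SE 0.04), and the dynein light chain *Dynll1* from 265 ± 11.3 to 230 ± 7.39 CPM (-0.20, SE 0.03). *Lzts3* (-0.13, SE 0.04, edgeR adjusted p = 0.0234, DESeq2 0.0669), whose product binds SHANK, and *Sipa1l1* (-0.12, SE 0.03) came next. *Wasf1*, the WAVE1 subunit, was the fifth (-0.11, SE 0.03).

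Of the 4 CaMKII genes and *Nrgn*, which encodes the calmodulin-binding neurogranin, 2 were down-regulated and 0 up-regulated (median -0.14). *Nrgn* stood at 11.98, 13.1, 11.2 and 12.8 CPM in control F36, F37, M30 and M31 and at 9.31, 8.06, 8.82 and 8.77 CPM in stress F34, F35, M28 and M29. The groups lay apart, with a Log2FC of -0.49 (SE 0.07, edgeR adjusted p = 6.38e-05). *Camk2b*, the CaMKII subunit that binds actin, fell from 240 ± 12.4 to 202 ± 10.8 CPM (-0.25, SE 0.03), whereas *Camk2a* had a Log2FC of 0.01 (SE 0.04, adjusted p = 0.852). At inhibitory synapses, 3 of 6 scaffold genes were down-regulated and 0 up-regulated (median -0.09), namely *Insyn1* (-0.18, SE 0.04), *Insyn2a* (-0.15, SE 0.05, edgeR adjusted p = 0.0413, DESeq2 0.132) and *Nlgn2* (-0.10, SE 0.03).

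**Figure D4:**
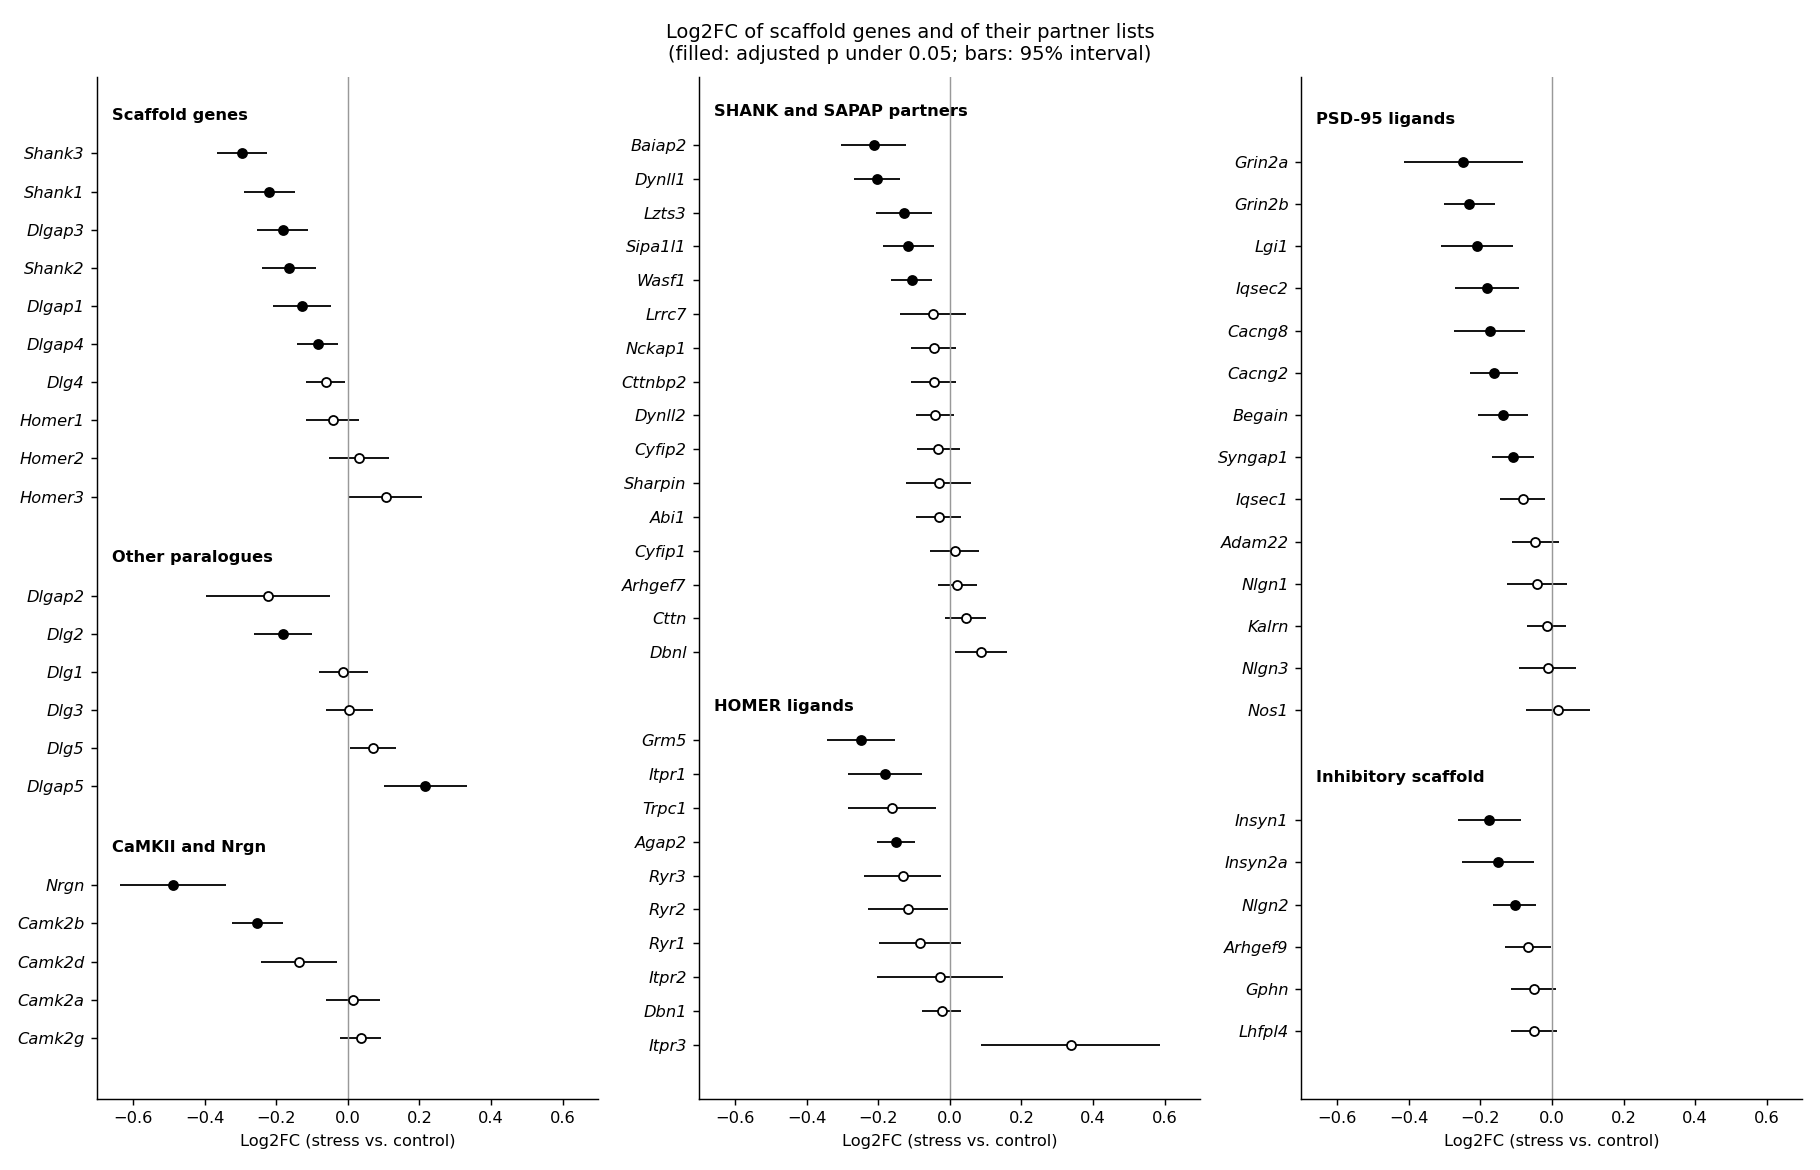
Log2FC (stress vs. control) of the 10 scaffold genes, their other paralogues and the partner lists, with bars for the 95% interval and filled points for an adjusted p under 0.05, and 1 gene not drawn. Filled points lie to the left of 0 except *Dlgap5* at 0.22, and *Nrgn* at -0.49 is the lowest.

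Markers of several cell types also differed between the groups, some lower and some higher in stress. The background for each marker list is again 7.27% of all genes called lower and 6.49% called higher, not matched for expression level. Of 14 neuron markers, 7 were down-regulated and 1 up-regulated (median Log2FC -0.08), with a summed level of 11039 to 11296 CPM in control and 10782 to 11234 CPM in stress brains. Among them *Rbfox3*, the marker of mature neurons known as NeuN, fell by 0.13 on the log2 scale (SE 0.03). *Tubb3* stood at -0.02 (SE 0.02, edgeR adjusted p = 0.694). The neuron marker called higher was *Ina* (Log2FC 0.09, SE 0.03, edgeR adjusted p = 0.0232). *Dcx* (0.06) and *Elavl4* (0.03) also stood above 0 and were not called. Of 10 radial glia markers, 0 were lower and 6 higher (median 0.12, summed 1837 to 1959 CPM in control and 1909 to 2078 CPM in stress). Of 5 intermediate progenitor markers, 0 were lower and 4 higher (median 0.24, summed 311 to 337 CPM in control and 344 to 384 CPM in stress), and *Eomes* rose by 0.25 (SE 0.03). The part of these markers in the falls of the scaffold genes and of their partners was not tested.

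The remaining marker lists were smaller or low. Called lower and higher were 1 and 2 of 8 erythroid, 2 and 0 of 5 endothelial or pericyte, 0 and 0 of 5 microglia, 0 and 2 of 4 meninges, 2 and 0 of 4 oligodendrocyte lineage, 2 and 0 of 4 astrocyte, 0 and 1 of 4 choroid plexus and 0 and 0 of 2 skeletal muscle markers. The 2 erythroid genes higher in stress, *Hba-x* and *Hbb-y*, encode embryonic globins. *Hba-x* rose from 1.73 ± 0.358 to 3.71 ± 0.558 CPM (Log2FC 1.09, SE 0.15, edgeR adjusted p = 2.21e-05). *Hbb-y* rose from 3.36 ± 0.824 to 6.00 ± 0.765 CPM (0.84, SE 0.13, edgeR adjusted p = 0.000120). In both, every stress brain lay above every control, and both were also called by DESeq2. *Hbb-bh1*, another globin gene of this list, was not called higher. The summed level was 364 to 412 CPM in control and 370 to 385 CPM in stress for erythroid, 138 to 151 and 128 to 137 CPM for endothelial or pericyte, and 25.6 to 29.1 and 24.6 to 28.1 CPM for microglia genes. It was 11.2 to 20.5 and 14.3 to 42.0 CPM for meninges, 104 to 115 and 91.0 to 97.1 CPM for oligodendrocyte lineage, and 57.1 to 62.0 and 51.6 to 58.8 CPM for astrocyte genes. For choroid plexus it was 2.19 to 10.1 and 2.42 to 32.6 CPM, and for skeletal muscle 1.97 to 3.46 and 2.06 to 3.16 CPM. The meninges and choroid plexus genes called by edgeR were not called by DESeq2. No marker was at 0 in all 8 brains, and every neuron and radial glia marker had counts in every library.

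The calls also differed by base composition. In the fifth of all tested genes with the highest GC content, the median Log2FC was -0.03, with 13.0% called lower and 4.34% higher, and in the fifth with the lowest it was 0.01, with 4.54% lower and 7.31% higher. The down-regulated *Dlgap3* (63.9% GC over its longest transcript), *Shank3* (62.4%) and *Shank1* (61.4%) are GC-rich, as is *Homer3* (60.2%), while *Dlg4* (46.8%), *Homer2* (44.4%) and *Homer1* (36.9%) are not. The down-regulated *Dlgap4* (59.4%) is GC-rich too, since the class of genes with the highest GC content above starts at 55.2%. *Shank2* (55.0%) falls just short of that class, and *Dlgap1* (50.9%) lies between it and *Dlg4*. With offsets for GC content and gene length, the Log2FC was -0.23 for *Shank3*, -0.16 for *Shank1* and -0.14 for *Shank2*, and all 3 were still called. That of *Dlgap4* was -0.04 and no longer called (edgeR adjusted p = 0.326).

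Leaving out each of the 8 brains in turn kept *Shank1*, *Shank2*, *Shank3* and *Dlgap3* called every time. Their Log2FC then ran from -0.27 to -0.20 for *Shank1*, from -0.19 to -0.12 for *Shank2*, from -0.31 to -0.28 for *Shank3* and from -0.21 to -0.16 for *Dlgap3*.

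**Figure D5:**
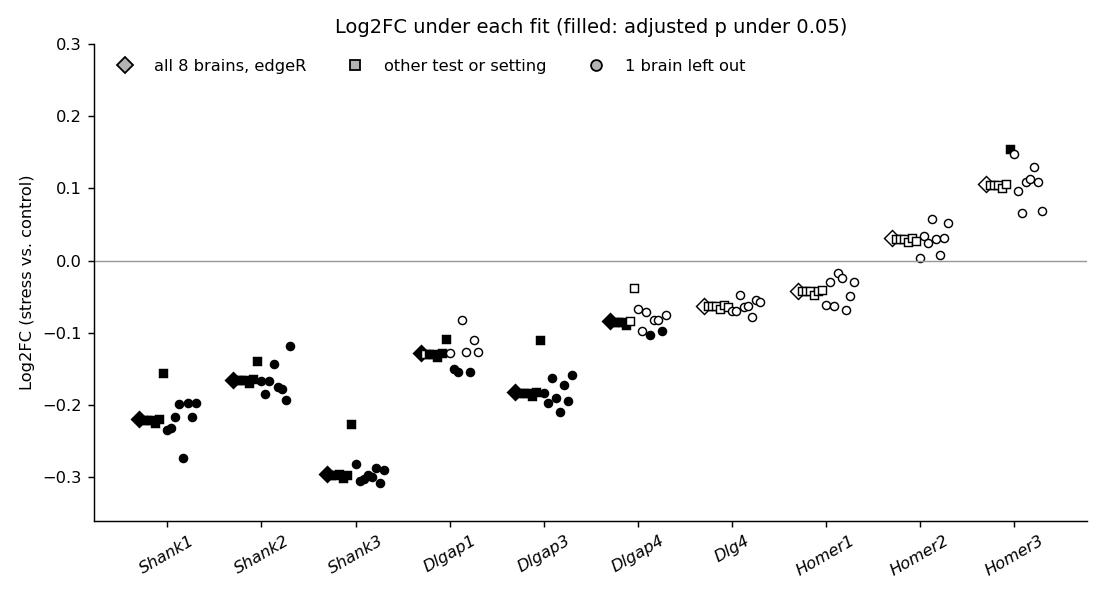
Log2FC of the 10 scaffold genes under each fit, with a diamond for the fit of all 8 brains, squares for other tests or settings and circles for fits with 1 brain left out, filled where the adjusted p was under 0.05. The points of *Shank1*, *Shank2*, *Shank3* and *Dlgap3* are filled throughout, those of *Dlgap1* and *Dlgap4* only in part.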

How the data were processed

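RNA of 8 E15.5 brains was sequenced by the authors as paired mRNA libraries. Reads were trimmed (Trim Galore) and mapped to mm10 (TopHat2 2.1.1), and pairs on exons of GENCODE vM20 genes were counted (featureCounts 1.6.3). The options given set no strand, and with the defaults of that tool a pair on exons of several genes is given to none of them. They deposited the raw count of every gene, not normalized, and totals ran from 25320109 to 29105710 per library. Of the 54752 gene IDs, 54723 matched a symbol, and *Insyn2a* was found by its older symbol.

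Genes were filtered (filterByExpr, minimum count 10, by group), TMM-scaled and fitted in edgeR 4.0.16 (glmQLFit, glmQLFTest; R 4.3.3) on sex and condition. The SE is the size of the Log2FC divided by the square root of F, and intervals are 95%. FPKM is the TMM-scaled CPM per kilobase of the exon length in the count table. Each sex was fitted alone, and the interaction in all 8 brains. Shares of FPKM were compared with exact permutation tests (scipy 1.17.1). The fits were tested on simulated data. The authors' model also had batch, which the labels do not give for these 8 brains, so it was left out here. GC content is from GENCODE vM21 transcripts and promoters are from RefSeq (GRCm38.p6).

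The 10 genes and all lists were chosen with earlier results of these data known, so no list is independent support. Named were the 10 genes and all paralogues that passed the filter. From each partner list came the called genes up to the 4 with the largest absolute Log2FC. *Wasf1*, *Nlgn2*, *Camk2a*, *Rbfox3*, *Tubb3*, *Ina*, *Dcx*, *Elavl4*, *Eomes*, *Hba-x*, *Hbb-y* and *Hbb-bh1* were added after their values were seen. Alternatives were DESeq2 1.42.0 (Wald test, and its size factors), upper-quartile scaling, no filter, offsets for GC content and length, no sex covariate, shares of counts, and each brain left out. Protein sequences were not used here, and 1 gene of the partner lists is counted but not reported here.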

Additional observations from a re-analysis of the deposited data

Results flagged for a closer look

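In the stress group *Shank2* was at 75.8 CPM in male M29, apart from the other 3 stress brains at 86.3 to 87.0 CPM. *Dlgap4* was at 317 CPM in the same male, apart from the other 3 at 328.7 to 329.0 CPM. Each value lay further from its group than Dixon's test allows at the 95% level. Of 38 groups of 4 brains looked at, 2 were flagged, and chance flags about 1 group in 20. Without M29, *Shank2* had a Log2FC of -0.12 (edgeR adjusted p = 0.0264) and remained called, and *Dlgap4* a Log2FC of -0.08 (edgeR adjusted p = 0.135) and did not.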

How the results depend on the processing

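Stress vs. control gave 6 of the 10 genes lower and 0 higher, and 4 to 5 lower and 0 higher with 1 brain left out. With offsets for GC content and length 1 gene was higher, *Homer3*, and in the partner lists 4 were higher in place of 1, with 1 to 2 higher and 17 to 24 lower when 1 brain was left out (2 higher without control F36, stress F35 or stress M29). DESeq2 and the fit without sex each gave 19 lower in the partner lists. In females 2 genes were lower, 1 with DESeq2 and 1 to 3 with 1 brain left out. In males 5 were lower, 3 with DESeq2, 0 without a filter and 2 to 5 with 1 brain left out; a lone brain was assumed to vary like the others. Values that changed sign when 1 brain was left out were never called. They were the interaction of *Homer1* (-0.0792 to 0.0324) and *Dlgap4* (-0.0146 to 0.0682), the female Log2FC of *Homer1* (-0.0832 to 0.0249) and *Homer3* (-0.0475 to 0.0841), and the male Log2FC of *Homer1* (-0.11 to 0.0016) and *Homer2* (-0.0611 to 0.0147). The share differences of *Shank1* (-0.57 to 0.40 percentage points), *Homer2* (-0.47 to 0.28) and *Dlgap1* (-0.19 to 0.12) also did, and with counts in place of FPKM those of *Shank1* (-0.0594) and *Homer2* (0.436). The cause was not tested. With 7 brains no share can pass the exact test. No paired analysis was possible because the groups share no replicate numbers. Each group is 1 litter, and depth limits the low genes most.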

Other observations

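The annotation lists between 4 (*Dlgap3*) and 22 (*Dlg4*) transcripts per scaffold gene, and 12 for *Homer1*, of which 11 are protein-coding, all summed in the counts.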
